A study of Caenorhabditis elegans with 2 samples.

Results

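The binding of NHR-80 was examined at 10 genes of the p38 and stress kinase pathways of Caenorhabditis elegans, out of 19973 protein-coding genes on the nuclear chromosomes. The genes are tir-1, nsy-1, sek-1, pmk-1, vhp-1, atf-7, nipi-3, cebp-1, kgb-1 and mek-1. They were chosen by name from the pathway, with earlier peak results of these data known, and the peak lists then gave every summit from 2000 bp upstream of a gene's 5′ end to 1000 bp past its 3′ end. All 10 genes held at least 1 summit of the authors' thresholded list, against 32.3% of all protein-coding genes. Because the choice was made with such peaks in view, these counts and signal values are descriptions, and no test was made on them.

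Mitogen-activated protein kinase cascades pass a stress signal down a chain in which each kinase phosphorylates the next. In the p38 cascade of C. elegans, the TIR-domain adaptor TIR-1 acts on the kinase NSY-1, which acts on SEK-1, which acts on the p38 kinase PMK-1. This chain is known for its part in intestinal defence against pathogens, and TIR-1 and NSY-1 also act in neurons. A parallel JNK-like arm runs through MEK-1 to KGB-1 and is known for heavy metal stress and axon regeneration. NHR-80 is a nuclear hormone receptor best known for the control of fat metabolism.

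The 2 samples are biological replicates of 1 group, with no second group to compare. The animals were whole hermaphrodite young adults of strain OP460, collected 64 hours after synchronisation of starved L1 larvae. The strain carries unc-119(tm4063) and the integrated transgene wgIs460, which expresses NHR-80 with GFP and FLAG at its C terminus. The sample description names GFP as the target of the antibody, while another label names nhr-80. OP460 is a single transgenic line, the sources used here do not give the transgene's copy number, and no untagged animals were analysed. Whole animals were used, so binding in many cells and strong binding in few cells cannot be told apart. Chromatin immunoprecipitation followed by sequencing (ChIP-seq) gave peak lists on build ce11, each peak with a summit and a signal value set by the authors' peak caller. There were 30000 peaks in the pooled list, 30000 in that of replicate 1 and 29712 in that of replicate 2. Thresholding by the irreproducible discovery rate (IDR), which keeps peaks whose ranks repeat between replicates, left 7038, of which 7020 lay on nuclear chromosomes. Ranks below count from 1 for the strongest signal of a list. Read depth is unknown, because peak lists hold no read counts.

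Together the 10 genes held 34 thresholded summits in 29 intervals with different coordinates, some of which overlap at vhp-1. Sequences are shown for the summits on which the account below turns, namely the strongest ones of nipi-3, atf-7 and tir-1, the strongest of vhp-1, a tir-1 summit far from any transcript start, and the only thresholded summits of pmk-1 and cebp-1. Each spans 50 bp on either side of the summit in the WBcel235 genome from RefSeq and is written 5′ to 3′ on the strand of the named gene. Capitals mark TGATAA, the core of sites bound by GATA factors, TGACGTNA, a cyclic AMP response element of the kind that ATF proteins bind, and TTGCGNAA, which resembles C/EBP sites, each on either strand.
nipi-3 upstream (chrX:15607656-15607756, plus strand): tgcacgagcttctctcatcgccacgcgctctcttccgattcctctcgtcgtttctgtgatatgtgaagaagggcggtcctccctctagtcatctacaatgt
nipi-3 past the 3′ end (chrX:15610624-15610724, plus strand): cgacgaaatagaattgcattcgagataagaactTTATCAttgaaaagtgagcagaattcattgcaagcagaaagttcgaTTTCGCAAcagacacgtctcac
atf-7 intron, strongest (chrIII:4496187-4496287, minus strand): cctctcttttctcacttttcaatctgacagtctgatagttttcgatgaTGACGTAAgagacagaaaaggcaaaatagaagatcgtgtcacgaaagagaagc
atf-7 intron, second (chrIII:4494606-4494706, minus strand): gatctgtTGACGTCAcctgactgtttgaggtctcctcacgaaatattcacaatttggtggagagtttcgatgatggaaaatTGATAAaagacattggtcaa
tir-1 intron, strongest (chrIII:3887741-3887841, minus strand): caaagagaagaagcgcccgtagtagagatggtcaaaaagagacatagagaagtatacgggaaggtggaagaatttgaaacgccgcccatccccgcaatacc
tir-1 intron, first (chrIII:3894162-3894262, minus strand): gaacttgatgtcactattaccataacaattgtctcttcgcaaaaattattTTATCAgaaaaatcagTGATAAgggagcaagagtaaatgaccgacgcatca
vhp-1 intron (chrII:5323966-5324066, plus strand): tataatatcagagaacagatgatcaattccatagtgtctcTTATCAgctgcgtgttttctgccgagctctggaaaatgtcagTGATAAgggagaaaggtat
pmk-1 past the 3′ end (chrIV:8151916-8152016, plus strand): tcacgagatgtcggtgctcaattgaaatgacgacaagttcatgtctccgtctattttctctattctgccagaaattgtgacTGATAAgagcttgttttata
cebp-1 upstream (chrX:1454591-1454691, minus strand): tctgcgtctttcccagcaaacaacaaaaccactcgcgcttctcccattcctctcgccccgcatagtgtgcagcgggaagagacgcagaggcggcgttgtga

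Among these, the upstream summit of nipi-3, the strongest summit of tir-1 and the summit of cebp-1 held none of the marked sequences. The first intronic summit of tir-1 and the intronic summit of vhp-1 each held TGATAA at 2 places. Both atf-7 sequences held TGACGTNA, in the second one as the palindrome TGACGTCA. The strongest summits of sek-1, kgb-1 and mek-1 and the second strongest of tir-1 are not shown and held no TGATAA. The strongest summit of nsy-1, also not shown, held it. All shown summits that were not their gene's strongest held TGATAA, so the printed set does not show how common it was.

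**Figure D1:**
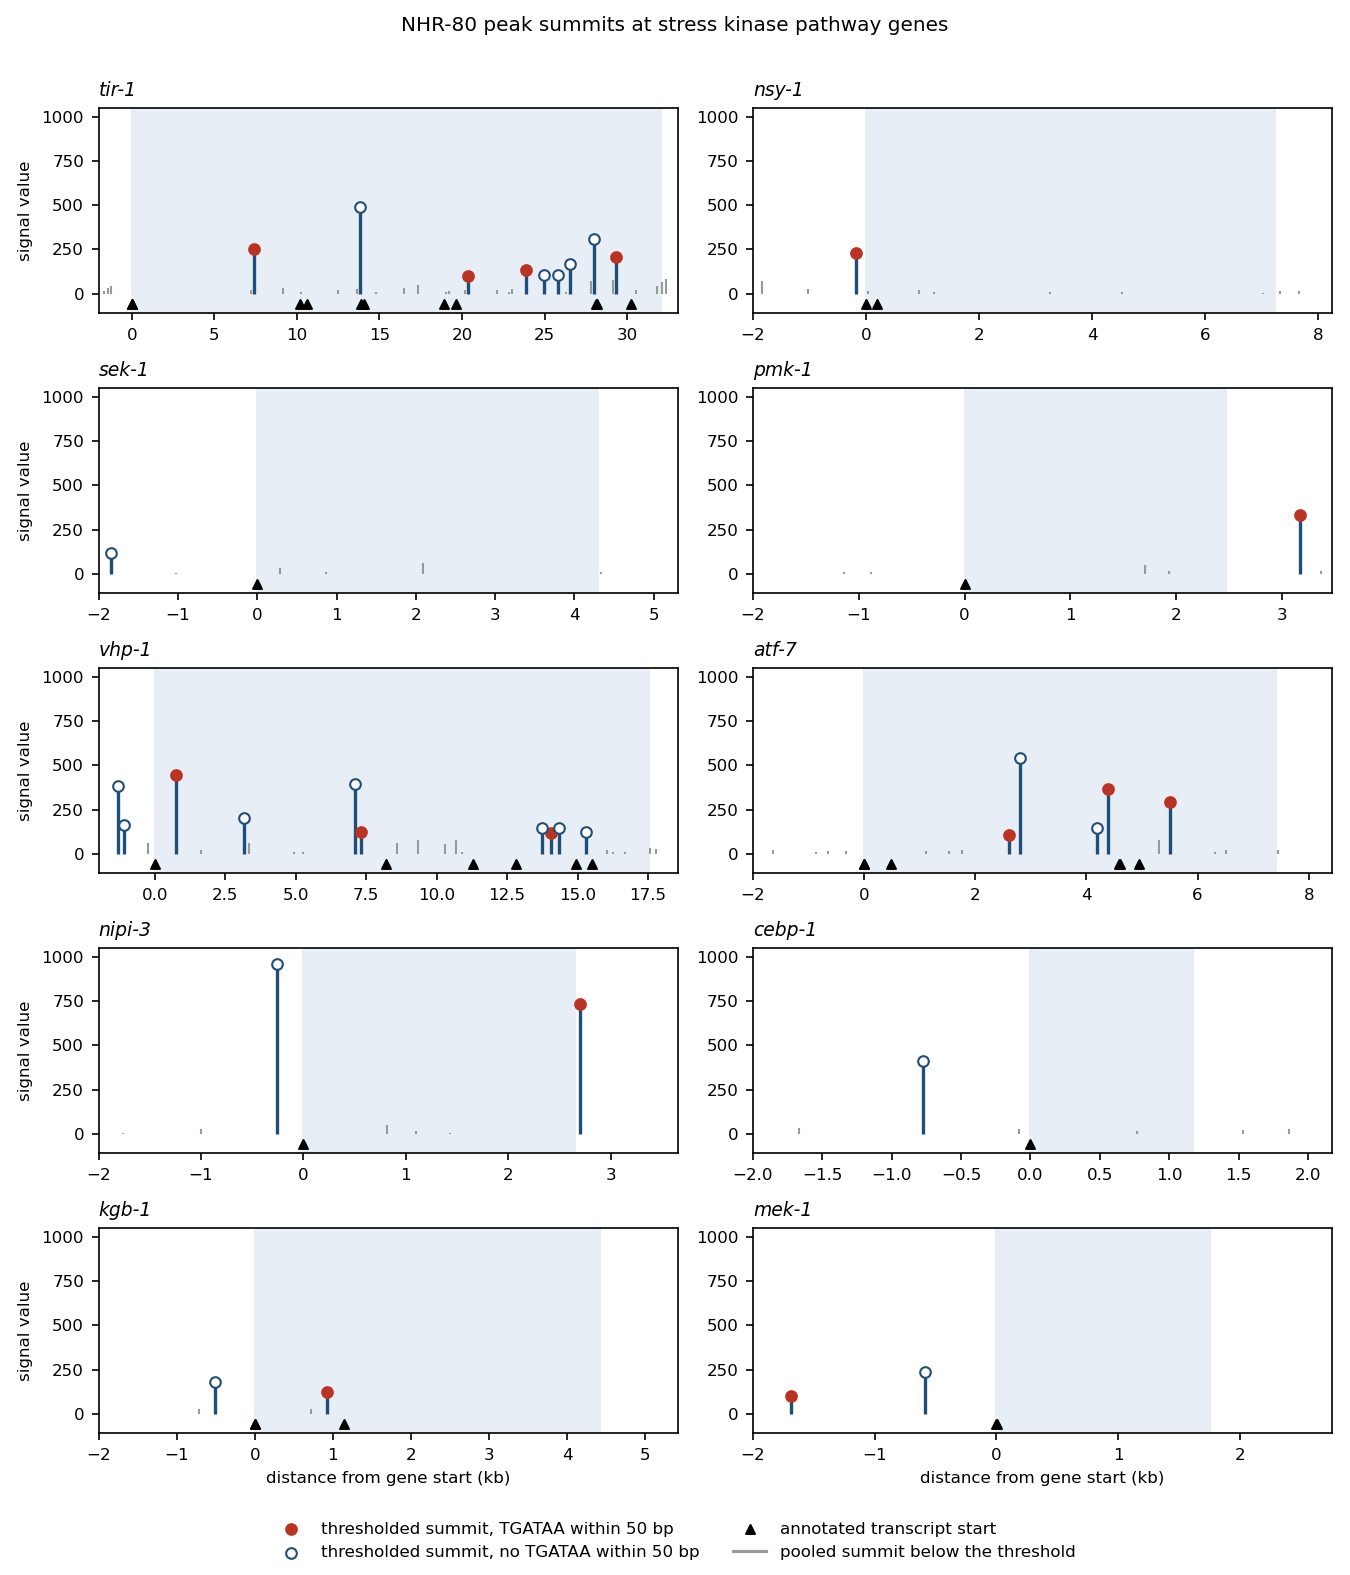
Thresholded summits along the 10 genes, with distance from the annotated gene start in kb on the horizontal axis and the signal value in the pooled data on the vertical axis. Shading is the gene, triangles are annotated transcript starts, circles are thresholded summits (filled where TGATAA lies within 50 bp), and grey lines are pooled summits below the threshold. The 34 summits range from 98.0 in tir-1 to 961 upstream of nipi-3, and tir-1, vhp-1 and atf-7 hold 24 of them.

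The adaptor at the head of the p38 chain had many summits, all inside the gene. TIR-1 is the worm counterpart of SARM1, an enzyme that consumes NAD. The gene lies at chrIII:3869590-3901642 on the minus strand and spans 32053 bp, with 13 annotated transcripts that begin at 11 places. Its window held 9 thresholded summits, of which 7 were in introns and 2 in exons annotated as 5′ UTR. None lay in the promoter window of the gene, defined as 1000 bp upstream to 200 bp downstream of the annotated start. The strongest, with a signal of 490.0 and rank 632, lay 13851 bp into the gene. It had a signal of 249 in replicate 1 and 241 in replicate 2, and ranks of 743 and 520 in those lists. This summit lay 61 bp upstream of the place where transcripts F13B10.1c.1 and F13B10.1e.1 begin. The second strongest (signal 308, rank 1784) lay 129 bp upstream of the start of F13B10.1b.1, with ranks of 1803 in replicate 1 and 1836 in replicate 2. Both of the strongest tir-1 summits therefore sat next to internal transcript starts and far from the first one. Next came a summit of 253 at 7430 bp, which was 2752 bp from the nearest annotated start. The other 6 had signals from 98.0 to 205.

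The 3 kinases of the chain had 1 thresholded summit each, and these differed in position and strength. NSY-1, a MAP kinase kinase kinase related to ASK1, is encoded at chrII:5022757-5029999 on the plus strand. Its summit at -169 bp from the start had a signal of 229.9 and rank 2838, with signals of 127 in replicate 1 and 105 in replicate 2. The same summit lies in the promoter window of F59A6.13, a gene annotated inside nsy-1. For sek-1, the MAP kinase kinase gene (chrX:7816734-7821036, plus strand), the summit was at -1850 bp, within the neighbouring gene R03G5.6, which runs on the other strand. It was the weakest of the strongest summits, with a signal of 117 and rank 5898, and ranks of 5461 in replicate 1 and 7226 in replicate 2. Among as many of replicate 2's strongest peaks as the thresholded list holds, no summit remained in the sek-1 window.

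The p38 kinase gene pmk-1 (chrIV:8148794-8151266, plus strand) had no thresholded summit upstream of its start within 2000 bp or inside it. Its single summit lay 700 bp past its 3′ end, which is -479 bp from the start of the next gene, faah-2. That gene is named for a fatty acid amide hydrolase. The signal there was 335 (rank 1531), with 165 in replicate 1 and 167 in replicate 2. The genes pmk-3, pmk-2 and pmk-1 follow each other on the same strand, with 345 bp and 145 bp between them, and are known as an operon, a cluster transcribed together from an upstream promoter. A summit of 271 lay at -51 bp from the start of pmk-3, the first of them, which is -9626 bp from pmk-1. A weaker one of 120.1 lay inside pmk-3, 3708 bp from its start, which is -573 bp from the start of pmk-2. These 2 summits had ranks of 2511 and 6248 in replicate 1, and of 2025 and 5785 in replicate 2.

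The transcription factor gene at the end of the chain had its strongest summit in an intron. ATF-7 is a bZIP protein that represses immune genes until PMK-1 phosphorylates it. The gene (chrIII:4491627-4499045, minus strand) held 5 thresholded summits in 3 intervals, 4 of them intronic and 1 in a coding exon. The strongest, 2808 bp into the gene, had a signal of 540.0 and rank 467, with 306 in replicate 1 and 234 in replicate 2. The next, with 367 (rank 1252), lay 206 bp upstream of the start of transcript C07G2.2c.1. In replicate 1 it was matched by a summit 68 bp away (signal 174), and in replicate 2 by one at the same base (signal 204). The coding-exon summit had 294, and the remaining 2 had 107 and 143, each in the interval of a stronger summit. The weakest, 2603 bp into the gene, ranked 18318 in replicate 1 and 11172 in replicate 2, so neither replicate placed it among its strong peaks.

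The pseudokinase gene nipi-3 held the strongest summits of the 10 genes, and the phosphatase gene vhp-1 the most numerous. NIPI-3 is a Tribbles-like pseudokinase that is needed for antimicrobial peptide expression in the epidermis and that opposes CEBP-1 in development. Its gene (chrX:15607969-15610623, plus strand) had a summit at -263 bp with a signal of 961 and rank 47. That summit had 555 in replicate 1 and 412 in replicate 2, and ranks of 31 and 70 (50.5 ± 27.6, SD, n = 2). A further summit, 51 bp past the 3′ end, had 735 and rank 156, with 399 in replicate 1 and 339 in replicate 2. The ranks there were 155 and 163 (159 ± 5.66, SD, n = 2). Both nipi-3 summits were stronger than any summit of the other 9 genes in the pooled data and in each replicate. By its strongest summit, nipi-3 came 56th of the 6443 protein-coding genes with a thresholded summit in the window.

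VHP-1 is a dual-specificity phosphatase that removes phosphate from PMK-1 and from KGB-1. Its gene (chrII:5323276-5340829, plus strand) spans 17554 bp and held 10 thresholded summits in 7 intervals, 8 of them intronic. The intervals of the summits at 7104 bp and 7313 bp begin at the same base and overlap, but are counted separately. The strongest lay 740 bp into the gene, in an intron, with a signal of 443 (rank 810), 234 in replicate 1 and 215 in replicate 2. Its replicate 1 summit lay 66 bp away, beyond the 50 bp shown on either side, and its replicate 2 summit at the same base. Close behind were a summit 7104 bp into the gene (392, rank 1091) and one at -1310 bp (383, rank 1145). The first of these ranked 964 in replicate 1 and 1265 in replicate 2, and lay within the antisense RNA gene anr-54. The summit at -1310 bp ranked 843 in replicate 1 and 1655 in replicate 2, and its replicate 2 summit lay 57 bp away. The remaining 7 had signals from 119.7 to 203. The last of them, 15301 bp into the gene, lay 196 bp upstream of the start of transcript F08B1.1g.1.

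Summits this numerous were uncommon, although long genes held more of them. Counts of 9 or more were found at 0.0551% of protein-coding genes, which are 11 genes, among them vhp-1 and tir-1 as well as daf-16 and hlh-30. Of the 278 genes with windows at least as long as that of vhp-1 (20554 bp), the median held 1 summit, and 6 genes held 10 or more. Of the 48 with windows at least as long as that of tir-1 (35053 bp), the median held 1.5, and 3 held 9 or more. At least 5 summits, the count of atf-7, were found at 0.496% of genes. Of the 1726 genes with windows at least as long as that of atf-7 (10419 bp), the median held 0, and 71 held 5 or more. By window length, 6 of the 10 pathway genes were among the longest 25% of genes, where 42.8% had a summit, and 1 (cebp-1) was among the shortest 25%, where 24.2% had one.

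CEBP-1 and the JNK-like arm had their strongest summits upstream. CEBP-1 is a bZIP factor of the C/EBP type, and its mRNA is a target of p38-type DLK-1 signalling in damaged axons. The compact gene cebp-1 (chrX:1452695-1453868, minus strand) had 1 summit at -773 bp with a signal of 413 and rank 963. It had 209 in replicate 1 and 205 in replicate 2, with ranks of 1126 and 840. MEK-1, a MAP kinase kinase, activates the JNK-like kinase KGB-1. The summit of mek-1 (chrX:7479248-7481005, plus strand) at -586 bp had 238 and rank 2689, with 142 in replicate 1 and 96.4 in replicate 2. A second, at -1687 bp, had only 98.5 and rank 6752, and ranked 6503 in replicate 1 and 7715 in replicate 2. For kgb-1 (chrIV:405621-410035, minus strand) the summit at -504 bp had 180.1 and rank 3856, with 91.1 in replicate 1 and 90.9 in replicate 2. That summit was nearer to the start of the divergent gene T07A9.12, at -328 bp. An intronic summit of kgb-1 had 122 and lay 211 bp upstream of the start of transcript T07A9.3.3.

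**Figure D2:**
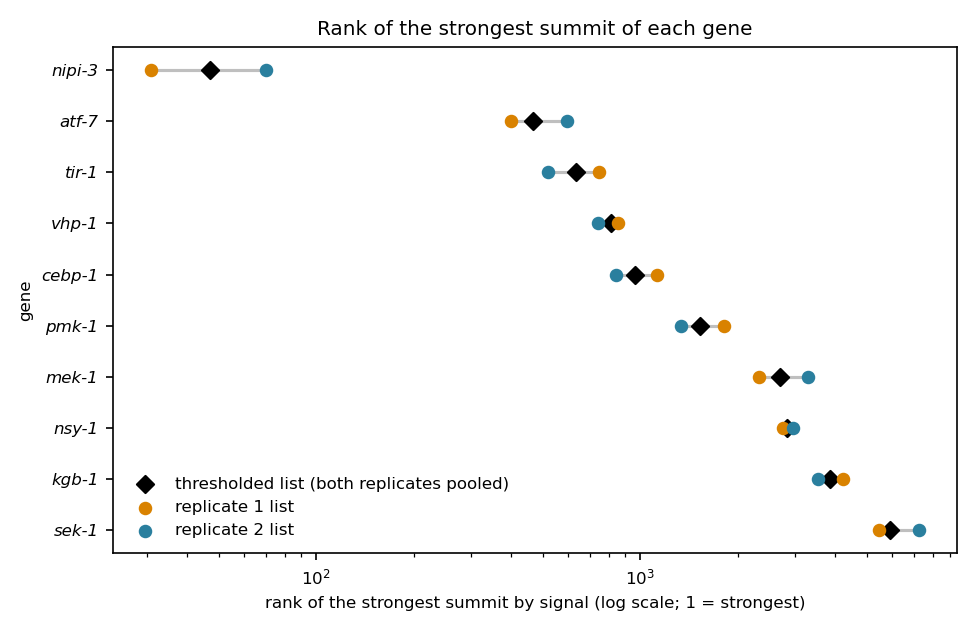
Rank of each gene's strongest summit in the thresholded list (diamonds) and of the matching summit in the list of replicate 1 and of replicate 2 (circles), on a log axis where 1 is the strongest. The genes run from nipi-3 (rank 47) to sek-1 (rank 5898), and in every gene the rank in the thresholded list lies between the replicate ranks.

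The order of the genes by strongest signal was nipi-3, atf-7, tir-1, vhp-1, cebp-1, pmk-1, mek-1, nsy-1, kgb-1 and sek-1. The replicates placed nipi-3 first and sek-1 last. The replicate ranks of atf-7 (399 and 595) overlapped those of tir-1 (743 and 520), and those of tir-1 overlapped those of vhp-1 (854 and 740). The ranks of vhp-1 and cebp-1 (1126 and 840) also overlapped, as did those of mek-1 (2328 and 3299) and nsy-1 (2753 and 2960). These 4 pairs of neighbours were therefore not separated by more than the replicates differed, while the other 5 pairs did not overlap. The replicate ranks of a strongest summit differed by at most 2.26 times, at nipi-3. All 34 summits overlapped a peak in both replicate lists, which the thresholding on these same replicates largely builds in. Of these, 28 were matched by peaks among the 7038 strongest of both, with 32 for replicate 1 and 29 for replicate 2. The same counts are not given for the other thresholded summits, so they do not show how well these genes repeat beside the rest of the list. The median distance from the pooled summit to the nearest replicate summit was 5 bp in replicate 1 and 7.5 bp in replicate 2.

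Signals over all the summits of the pathway genes were ordinary for the list. Their median was 192, against 194 for the other nuclear thresholded summits, and 17 of 34 lay above the list's median. At 8 of 10 genes at least 1 summit lay above it, against 18.8% of all protein-coding genes, and at 6 of 10 there were 2 or more summits, against 10.9%. The strongest summit per gene had a median of 374 over the 10 genes, against 222 over the other protein-coding genes with a summit. The part that gene length and the number of summits per gene play in this difference was not tested. At the edge of the list, whose lowest signal was 93.0, the weakest summits inside were at tir-1 (98.0) and mek-1 (98.5). The strongest ones outside were at tir-1 (80.7, in sequence past the 3′ end) and vhp-1 (79.3, in the gene). In all, the windows held 116 pooled summits, 82 of them below the threshold, and 54% of all protein-coding genes had a pooled summit.

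**Figure D3:**
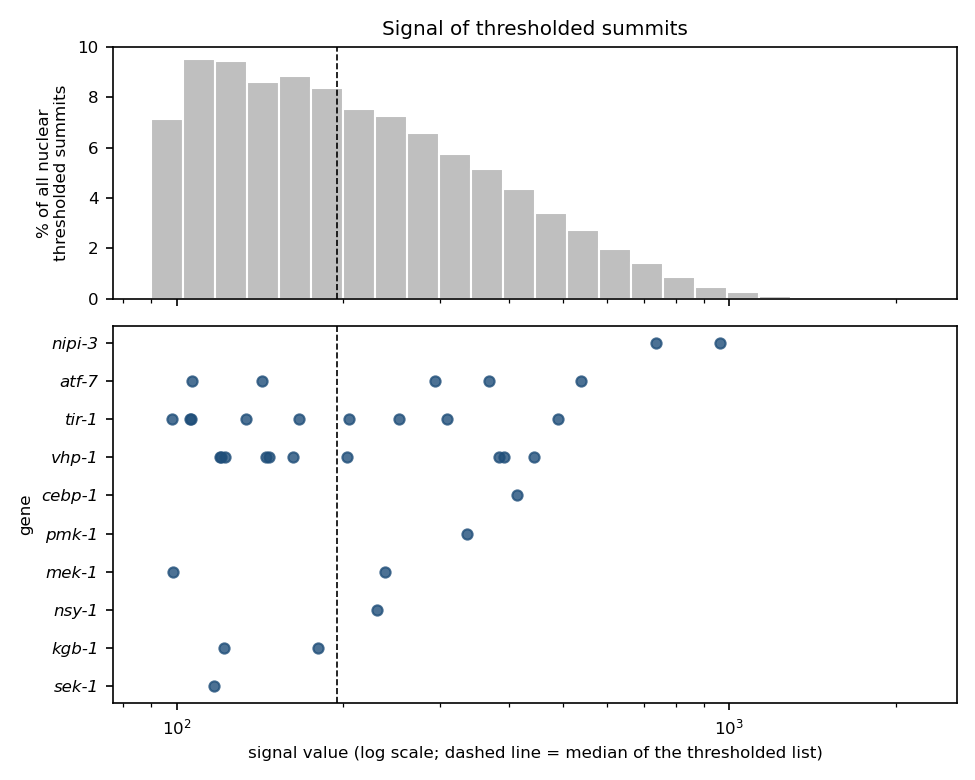
Signal of thresholded summits on a log axis, with the share of all 7020 nuclear summits per bin above and each of the 34 summits of the 10 genes as a point below. The dashed line is the list's median of 195, and 17 of the 34 points lie to its right, including both of nipi-3.

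By position, 20 of the 34 summits lay in introns, 9 upstream, 2 past the 3′ end, 1 in a coding exon and 2 in exons annotated as 5′ UTR. The intronic ones were in vhp-1 (8), tir-1 (7), atf-7 (4) and kgb-1 (1). The other nuclear summits were not classed in this way, so no preference for introns can be read from these counts. A summit in the promoter window of the gene start was found at 5 of 10 genes, against 18.6% of all protein-coding genes. These were nsy-1, nipi-3, cebp-1, kgb-1 and mek-1. Counting the start of any annotated transcript added tir-1, vhp-1 and atf-7, which gave 8 of 10 against 20.3%. Transcripts of these added genes begin at 11, 6 and 6 places, and the 20.3% is not matched for the number of starts. Only pmk-1 and sek-1 had none under that count. Within a narrower range, 500 bp before the gene start and 100 bp after it, nsy-1 and nipi-3 alone had one. Of the strongest summits, 3 also lay in the promoter window of another gene, those of nsy-1, pmk-1 and kgb-1. The same share over the strongest summits of all genes is not given. Summits of the pathway genes were at a median of 889 bp from the nearest protein-coding transcript start, against 589 bp for the other nuclear summits.

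The chromosomes of the genes differed from the genome's average. Of the 10 genes, 4 are on chromosome X (sek-1, nipi-3, cebp-1 and mek-1), which carries 13.7% of protein-coding genes and 23.2% of nuclear thresholded summits. These 4 genes held 6 of the 34 summits. The strongest of the 34 was on X, at nipi-3, and so was the weakest of the 10 strongest, at sek-1.

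Sequence within 50 bp of the summits, on either strand, was set beside that of all nuclear thresholded summits. TGATAA was present at 15 of 34 summits (44.1%), against 37.8% of the other 6986 and 37.9% of all. It was found at 3 of the 10 strongest summits, those of nsy-1, pmk-1 and vhp-1, and at 5 summits it occurred at 2 places. Above the list's median signal, 8 of 17 summits of these genes had it, and below it 7 of 17. Over the whole list the shares were 42.5% above the median and 33.2% at or below it, but 34.8% among the 500 strongest nuclear summits. TGACGTNA was present at 2 of 34 summits, both in introns of atf-7, against 1.58% of all nuclear summits. TTGCGNAA was present at 2, past the 3′ end of nipi-3 and at the weaker mek-1 summit, against 2.48% of all. The AP-1 type sequence TGANTCA was present at 5 (3 in vhp-1, and 1 each in tir-1 and kgb-1), against 4.00% of all. AGGTCA, a nuclear receptor half-site, was present at 1, in tir-1, against 3.33% of all. TGACGTCA is contained in TGACGTNA, and was present once here and at 0.584% of all, while TTGCGCAA, contained in TTGCGNAA, was at 0 of 34 and 0.228% of all. The GC content of the windows had the same median, 40.6%, for these summits and for all nuclear ones.

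Further genes, in 4 broad lists linked to stress kinase signalling, were examined in the same windows. The lists include genes best known from other pathways, such as daf-16 and mpk-1, so their shares are not shares of the p38 pathway alone. Of 93 genes matched by name, 63 had a thresholded summit (67.7%), against 32.3% of all protein-coding genes, and 40 had one in the promoter window (43.01%), against 18.6%. The share was 80% for transcription factors, 77.3% for both kinases and immune effectors, and 44.8% for inputs and scaffolds. Some of these genes were known from earlier results of these data when the lists were written, so the shares are descriptions.

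Among transcription factors, 16 of 20 had a summit. The strongest were in an intron of daf-16 (signal 758), the insulin pathway FOXO factor, and upstream of elt-2 (710), the intestinal GATA factor. Next came crh-1 (648), the CREB homologue, followed by the bZIP gene zip-10 (617) and the ETS gene ets-4 (617). The SKN-1 gene, whose product PMK-1 phosphorylates under oxidative stress, had 519 in an intron. No thresholded summit was found at sta-2, zip-8, fos-1 or atf-2.

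Among the other kinases, 17 of 22 had a summit. The strongest were at zak-1 (546), mpk-2 (544) and mpk-1 (483), an ERK-type kinase. The MAP kinase kinase gene sek-3 had 335 in an intron and the germinal centre kinase gene gck-1 had 321 in a coding exon. The closest relative of kgb-1, kgb-2, had 139, and the JNK gene jnk-1 had no thresholded summit. The summit of 219 at jkk-1 is also the promoter summit of its neighbour sek-4. Those of mpk-2 and kgb-2 also lie in the promoter windows of C04G6.11 and Y37E11B.10.

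Of 29 input and scaffold genes, 13 had a summit. They were led by nhr-8 (718), wdr-23 (569), whose product restrains SKN-1, unc-43 (516), the CaMKII gene, plc-3 (414), a phospholipase C gene, and olrn-1 (369). The nuclear receptor gene nhr-86 had 121, and the E3 ligase gene rpm-1, the protein kinase C gene tpa-1 and the Galpha gene gpa-12 had none.

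Of 22 immune effector genes, 17 had a summit. The median of their strongest summits was 179, against 219 for kinases, 276 for inputs and scaffolds and 460 for transcription factors. Over the protein-coding genes with a summit outside the 10 it was 222. The part that the number of summits per gene plays in these differences was not tested. The lysozyme gene lys-8 led with 526, upstream of its start, followed by the C-type lectin gene clec-4 with 395, past its 3′ end. Next were the lysozyme gene lys-2 (364), upstream of its start, and clec-85 (343) and K08D8.5 (308), both past their 3′ ends. These summits of clec-4 and K08D8.5 also lie in the promoter windows of clec-8 and K08D8.4. The commonly used PMK-1 reporter gene sysm-1 (T24B8.5) had 98.6, close to the list's lower end, and ranked 5741 in replicate 1 and 8349 in replicate 2. The epidermal antimicrobial peptide genes nlp-29, nlp-31 and cnc-2 had no thresholded summit in their windows, and neither had irg-1 or hpx-2.

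**Figure D4:**
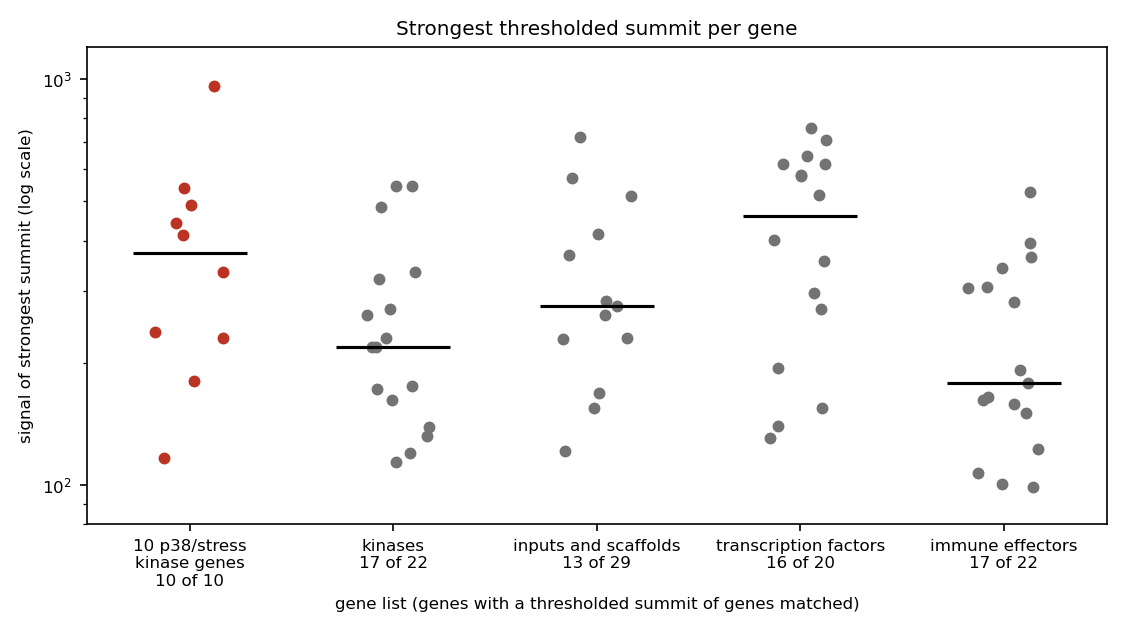
Signal of the strongest thresholded summit of each gene, on a log axis, for the 10 p38 and stress kinase genes and for the genes of the 4 further lists. Bars are medians over the genes with a summit, and the labels give how many of the matched genes had one. The 10 genes have a median of 374 and the transcription factors of 460, with overlapping ranges in all 5 columns.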

How the data were processed

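The authors deposited peak lists in the narrowPeak layout on build ce11, and per the notes deposited with the samples each replicate's list and the pooled list were derived from the alignments and 1 further file. The labels name a possible control, which was not analysed here. The thresholded list was derived from those 3 lists. Alignment and calling tools were not given in the sources used here, nor was the IDR cutoff. The deposited signal value is on each list's own scale, so it was used only to describe and rank peaks within a list. Depth is unknown, and no interval was given. The lists on build ce10 were not used.

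Summits (start plus offset plus 1, 1-based) were joined to genes of Ensembl release 115 on WBcel235, the assembly of ce11. For each thresholded summit, the nearest summit among overlapping peaks gave the replicate value, so 2 summits can share a replicate peak. All 10 genes were named, with up to 5 genes of each other list, the strongest first. Genes outside that rule (jnk-1, kgb-2, jkk-1, sek-4, nhr-86, rpm-1, tpa-1, gpa-12, skn-1, sysm-1 and those without a summit) were chosen after their values were seen, as were the comparisons with long genes and by signal. Genes and lists were chosen with earlier results of these data known. Of 95 symbols in the other lists, atf-5 and C09H5.2 were not matched. Sequence was to be printed at the strongest summit of all 10 genes, and is shown for 6. With 1 group of 2 replicates no test was made. Whether the replicates came from separate cultures is given only by the label "biological". Alternatives changed the list, the threshold, the windows and the assignment of summits. Counting was tested on simulated data. Python 3.11.15, numpy 2.4.6, pandas 2.3.3 and matplotlib 3.10.9 were used.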

Additional observations from a re-analysis of the deposited data

How the results depend on the processing

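All 10 genes had a summit in the main count, against 9 to 10 with the strongest peaks of a single replicate, and sek-1 was the gene missing without replicate 1. Above the median signal 8 remained (without sek-1 and kgb-1). The 34 summits became 30 to 34 with a single replicate, 17 above the median signal, 116 in the pooled list and 16 when a summit counted only for the nearest gene start. By that last assignment 7 of the 9 tir-1 summits, its second strongest (308) included, went to rpl-3, and 4 of the 10 at vhp-1 went to F09E5.14. Under it pmk-1 and atf-7 had none, the summits of atf-7 going to cpg-1 and to C07G2.5, a 72 bp gene annotated at the start of atf-7. From 1000 bp upstream to the 3′ end, 8 genes had a summit (not sek-1 and pmk-1) and there were 28 summits. Promoter summits at 5 genes became 8 in the pooled list, 2 in the narrower window and 8 with any transcript start, and stayed at 5 with either replicate alone. Except for any transcript start, the shares over all genes are not given for these promoter counts, nor for the window ending at the 3′ end. The genes of the 4 further lists with a summit were 63, and 62 with either replicate, but 39 above the median signal. They were 77 in the pooled list, 55 from 1000 bp upstream to the 3′ end and 52 by the nearest gene start. Shares over all genes are not given for the last 2 settings. Summits with TGATAA were 15 within 50 bp, 9 within 25 bp (26.5%, against 22.3% of all nuclear summits) and 19 within 100 bp (55.9%, against 51.7%). The median rank of the strongest summits was 1247 in the thresholded list, and 1085.5 to 1467 in a single replicate. Of 20 ranks of single genes in single replicates, 19 moved from the thresholded rank by less than 1 SD of the replicates, the exception being sek-1 in replicate 2. That SD comes from the same 2 ranks, with the thresholded rank between them, so at most 1 of a gene's 2 ranks could move by more. The count is therefore largely fixed in advance and does not measure robustness. No paired analysis was possible because there was a single group. Unknown depth limits what can be said of windows with no summit.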
